A study of Arabidopsis thaliana with 10 samples.

Results

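The pollen receptor kinases PRK1 to PRK8 of Arabidopsis thaliana were followed by mRNA sequencing in 10 pollen libraries. They are the 8 genes named by their locus identifiers among the 27394 genes in the read count tables, and all 8 were measured. PRKs are receptor-like kinases with leucine-rich repeats outside the cell and a kinase domain inside it, and they sit in the plasma membrane of the pollen tube, the outgrowth of the vegetative cell that carries the sperm cells to the ovule. They act on ROP GTPases, the switches of tip growth, through guanine nucleotide exchange factors of the ROPGEF family, and some of them take part in sensing LURE1 peptides, the attractants released by the ovule. PRK6 is the receptor of LURE1, and PRK1, PRK3 and PRK8 act with it. PRK2 activates ROP1 signalling through ROPGEF12, and PRK5 is known as a receptor of the GRI peptide in leaves.

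The libraries fell into 5 groups of 2, all in the Col-0 ecotype and grown in a greenhouse under long days. WT Col-0 is wild-type pollen from open flowers. pLAT52::RTL1 and pMGH3::RTL1 pollen carried a Myc-tagged RTL1 transgene, an RNase III-like enzyme that suppresses small interfering RNAs (siRNAs), under the LAT52 promoter (late microspore, then mainly the vegetative cell) or the MGH3 promoter (male germline). More than 1 transgenic line was used per construct, so the libraries of a construct may differ by line, and WT Col-0 carries no transgene, so an effect of RTL1 cannot be told apart from one of carrying a construct by that contrast alone. WT FTL and nrpd1a-3 FTL pollen came from the same plants, which were heterozygous for the nrpd1a-3 insertion and for the linked FTL1230 transgene, a DsRed reporter under the LAT52 promoter. Grains were separated by fluorescence-activated sorting into DsRed-positive (WT FTL) and DsRed-negative (nrpd1a-3 FTL) pollen, and the DsRed-negative grains carry the insertion in NRPD1A, the gene for the largest subunit of RNA polymerase IV, which starts the production of most siRNAs.

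The number of reads over genes and transposable elements (TEs) was between 43490027 and 53471964 per library, and PRK1 to PRK8 together took 77932 to 200519 of them. RTL1 had 0 reads in the 6 libraries without the transgene, and its normalized counts were 205 and 107 for pLAT52::RTL1 and 147 and 164 for pMGH3::RTL1. The label of the sorted pollen could not be checked by NRPD1A, which had normalized counts of 0 to 10.1. All 4 tapetum markers were at 0 in every library, whereas all 8 vegetative cell markers and all 6 sperm cell markers were detected in every group. On a scale common to the 10 libraries, the summed level of 6 leaf markers ranged from 6.75 to 31.5 normalized counts in the wild-type groups, from 132 to 159 in the RTL1 groups and from 44.9 to 631 in nrpd1a-3 FTL, where replicate 1 was the higher.

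Sequence upstream of the annotated transcript start is shown for the 3 members that differed between pLAT52::RTL1 and both WT Col-0 and pMGH3::RTL1 pollen: PRK2 and PRK4, which were lower, and PRK8, which was higher. Each line gives the 200 bases before the start, 5′ to 3′ on the gene's strand, which is the plus strand for all 3, from the TAIR10.1 genome and RefSeq annotation at chr2:2916216-2916415 (PRK2), chr3:7044511-7044710 (PRK4) and chr1:27279141-27279340 (PRK8). Capitals mark the motif AGAAA, an element of the LAT52 promoter itself, on either strand (TTTCT on the strand shown).
PRK2: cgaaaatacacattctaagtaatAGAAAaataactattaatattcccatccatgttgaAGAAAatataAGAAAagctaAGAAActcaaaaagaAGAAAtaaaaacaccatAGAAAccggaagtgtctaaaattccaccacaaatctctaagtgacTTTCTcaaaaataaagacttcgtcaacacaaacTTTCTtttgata
PRK4: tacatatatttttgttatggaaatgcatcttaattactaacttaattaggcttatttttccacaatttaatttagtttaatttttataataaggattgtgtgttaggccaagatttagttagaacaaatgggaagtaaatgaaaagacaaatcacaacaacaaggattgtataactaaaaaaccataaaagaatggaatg
PRK8: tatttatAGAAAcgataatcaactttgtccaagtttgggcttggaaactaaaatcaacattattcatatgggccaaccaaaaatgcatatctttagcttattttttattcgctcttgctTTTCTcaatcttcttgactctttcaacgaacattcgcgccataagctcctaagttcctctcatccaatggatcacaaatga
The PRK2 window held 8 matches, the PRK4 window 0 and the PRK8 window 2. Of 26894 windows of the same length before the genes of the tables, 75.3% held at least 1 match, with a median of 1, and 24.7% held none. A count of 8 or more, a cut set at the PRK2 count itself, occurred in 0.0595%. The shorter pollen motif GTGA (TCAC on the other strand) occurred 1 time in each of these 3 windows and in 70.1% of all windows. PRK2 and PRK4, which fell together, had unlike match counts for AGAAA. Among the members not shown, PRK3 had 3 matches, PRK6 had 2 and PRK1, PRK5 and PRK7 had 1 each. The part of the motif in the PRK values was not tested.

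Similarity between the members was checked because near-identical genes can share reads. PRK4 and PRK5 were the most similar pair, with 79.3% identical bases over 1989 aligned coding bases, followed by PRK3 and PRK6 with 76.6% and PRK1 and PRK2 with 74.5%. The other pairs were between 60.9% and 65.3%. None of the 50-base windows of any of the 8 table intervals occurred at another place in the genome. The coding sequences were 1902 bases (PRK3) to 2061 bases (PRK5) long, and the table intervals, with start and end in TAIR10, left out 186 to 678 bases of each annotated transcript. PRK5 (AT1G50610, chr1:18742135-18744725) overlaps the TE AT1TE62110, and PRK7 (AT4G31250, chr4:15178925-15181751, minus strand) overlaps the antisense gene AT4G31248, so reads there cannot be assigned to either with certainty. The use of strand in counting is not given in the sources used here.

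The PRK genes spanned a wide range of levels in WT Col-0 pollen. PRK2 (AT2G07040, chr2:2916538-2918942) was the most abundant, at 1105 ± 73.0 RPKM, the reads per kilobase of exon scaled to the reads of the library over genes and TEs (mean ± SD, n = 2, as for all levels here), which placed it at rank 127 of 26907 genes. PRK4 (AT3G20190, chr3:7044943-7047390), a pollen kinase of the same family, followed at 334 ± 4.46 and rank 267. PRK5, PRK1 (AT5G35390, chr5:13596873-13598976), PRK3 (AT3G42880, chr3:14954587-14956577) and PRK6 (AT5G20690, chr5:7002453-7004551) lay close together at 73.5 ± 0.799, 54.0 ± 3.14, 51.7 ± 5.13 and 42.8 ± 0.502, and the PRK1 and PRK3 libraries overlapped. PRK8 (AT1G72460, chr1:27279510-27281533) was far lower, at 4.27 ± 0.319 and rank 3158. PRK7 was at 0.0367 ± 0.00452, with 4 reads in each WT Col-0 library and 4 to 14 reads in any library, so that its contrasts below have little precision.

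**Figure D1:**
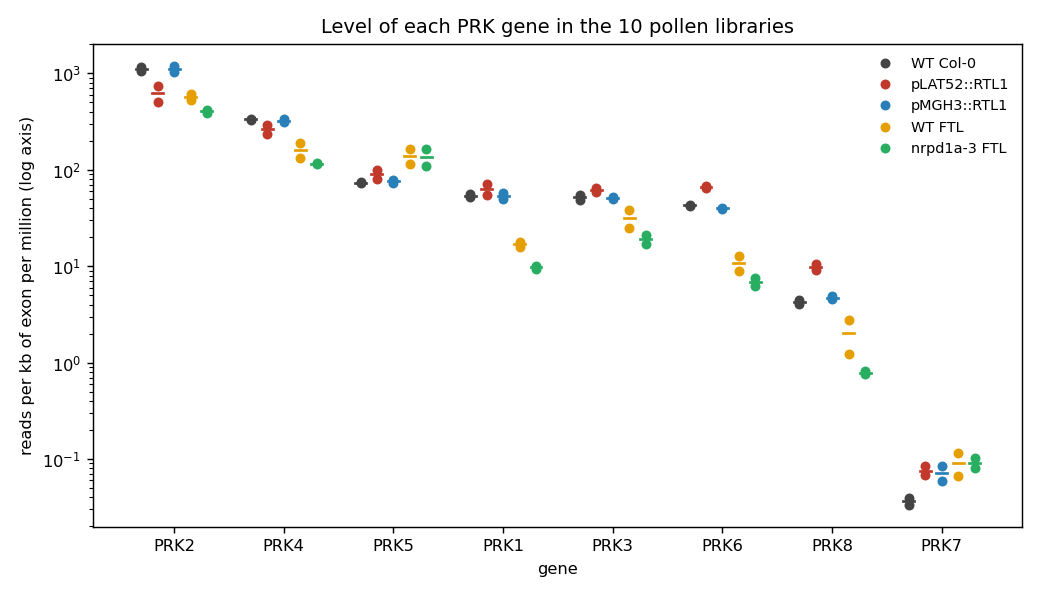
Level of each PRK gene in RPKM (log axis) in the 10 pollen libraries. Points are libraries, short lines are group means and colours are groups. PRK2 is the highest in every library and PRK7 the lowest, and in the FTL groups PRK5 lies above, and PRK1 and PRK6 below, their WT Col-0 levels.

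The order of the genes was not the same in all groups. PRK2, PRK4 and PRK5 held the top 3 places in every library. Their order was the same in 8 of the 10 libraries, and in nrpd1a-3 FTL replicate 2 and WT FTL replicate 2 PRK5, at 164 and 162, stood above PRK4, at 115 and 133. PRK6 was the sixth gene in WT Col-0. In pLAT52::RTL1 its level was 66.1 ± 2.88, beside 62.7 ± 11.6 for PRK1 and 62.4 ± 4.31 for PRK3, and these 3 could not be ordered beyond their spread. In WT FTL the levels were 31.5 ± 9.39 for PRK3, 16.9 ± 1.26 for PRK1 and 10.9 ± 2.80 for PRK6, with no overlap between libraries of neighbouring genes.

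Expression of RTL1 from the LAT52 promoter was compared with WT Col-0 pollen to ask how the PRK genes respond when siRNAs are suppressed in the vegetative cell. PRK2 and PRK4, the pair of most abundant members, fell, and the minor member PRK8 rose. PRK1, PRK3, PRK5 and PRK6 did not pass the test, and PRK7 received no adjusted p, as DESeq2 leaves out features with low counts. In DESeq2, 2 of the 7 members with an adjusted p were lower, beside 7.77% of the 11002 genes and TEs tested, and 1 was higher, beside 6.53%. The median log2 fold change was -0.21 over the 7 members and -0.01 over all features tested.

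PRK2 had normalized counts of 128261 and 141583 for WT Col-0, 43305 and 65657 for pLAT52::RTL1 and 130119 and 143392 for pMGH3::RTL1. The pLAT52::RTL1 libraries lay well below all others of the experiment, and replicate 1 below replicate 2. The log2 fold change against WT Col-0 was -1.31 ± 0.20 (SE), a level of 0.404 times the control (DESeq2 adjusted p = 3.01e-09), and it ranged from -1.63 to -1.03 when each library in turn was left out. PRK4 had 41936 and 42966 normalized counts for WT Col-0, 21234 and 26992 for pLAT52::RTL1 and 40418 and 42044 for pMGH3::RTL1. Again the groups did not overlap and replicate 1 was the lower of the pLAT52::RTL1 libraries. Its log2 fold change was -0.82 ± 0.17 (adjusted p = 3.13e-05).

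PRK8, a kinase that acts with PRK6, went the other way. Its normalized counts were 431 and 481 for WT Col-0, 796 and 704 for pLAT52::RTL1 and 539 and 475 for pMGH3::RTL1, so the pLAT52::RTL1 libraries were the highest of the 6. The log2 fold change was 0.72 ± 0.21 (DESeq2 adjusted p = 0.00625). The call was lost without WT Col-0 replicate 1 (0.63, adjusted p = 0.25) and without WT Col-0 replicate 2 (0.80, adjusted p = 0.0672), so it needed both controls.

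The members that sense LURE1 together with PRK8 did not pass the test. PRK6, the LURE1 receptor, had 4708 and 4655 normalized counts for WT Col-0, 4942 and 5417 for pLAT52::RTL1 and 4408 and 4357 for pMGH3::RTL1, with the pLAT52::RTL1 libraries highest but only narrowly. Its log2 fold change was 0.15 ± 0.16, with a 95% Wald interval of -0.16 to 0.45. PRK1 had 6301 and 5834 for WT Col-0 against 4314 and 5791 for pLAT52::RTL1 (-0.26 ± 0.18, interval -0.63 to 0.10). PRK3 had 5040 and 5832 against 4849 and 4532 (-0.21 ± 0.16), and PRK5 had 9327 and 9522 against 7296 and 9207 (-0.19 ± 0.17). Within pLAT52::RTL1, replicate 1 was the lower library for PRK1, PRK2, PRK4, PRK5 and PRK6 and the higher for PRK3 and PRK8. Without pLAT52::RTL1 replicate 2, PRK1 (-0.49, adjusted p = 0.0040) and PRK5 (-0.36, adjusted p = 0.0328) also passed as lower.

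**Figure D2:**
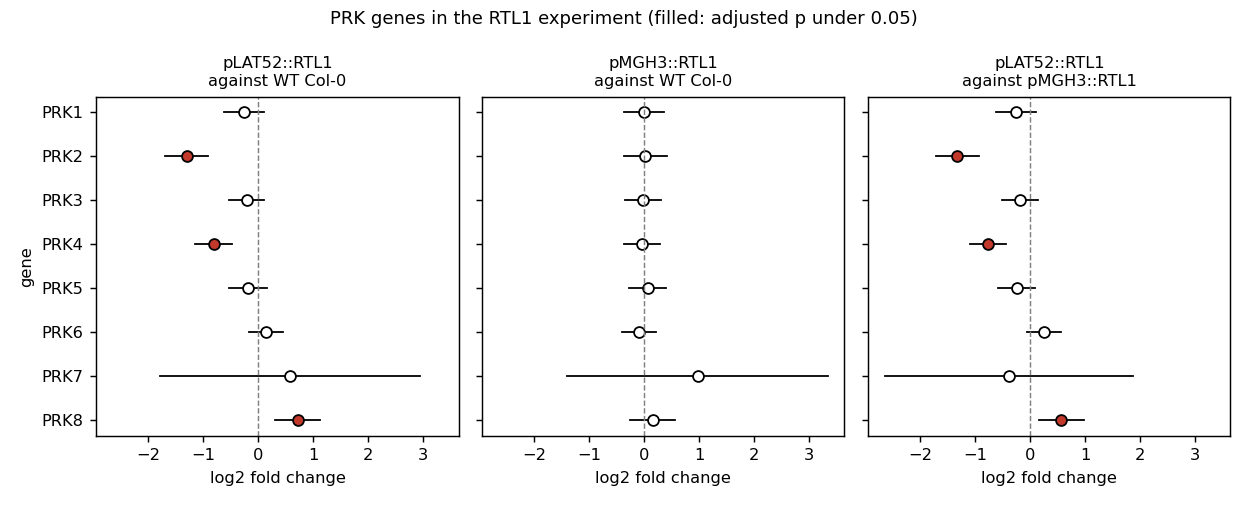
Log2 fold change of PRK1 to PRK8 in the 3 contrasts of the RTL1 experiment. Points are DESeq2 estimates, lines are 95% intervals, and filled points have an adjusted p under 0.05. PRK2 (-1.31) and PRK4 (-0.82) are below 0 and PRK8 (0.72) above it in pLAT52::RTL1, whereas in pMGH3::RTL1 every interval spans 0.

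These values are relative to the bulk of the genes and depend on that scaling. Scaling by the total number of reads moved the median of all features by 0.48 on the log2 scale and the share of higher among the called features from 45.6% to 87.2%. On that scale PRK2 was at -0.83 and still called, PRK4 at -0.34 was not called (adjusted p = 0.121), PRK6 at 0.63 was called as higher (adjusted p = 0.000525), and PRK1, PRK3 and PRK5 turned to 0.21, 0.27 and 0.29 without being called. PRK8 was higher on both scales (1.20 by total reads).

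Ratios between PRK genes within a library do not depend on the scaling. For every 100 reads of PRK2, PRK6 had 3.67 and 3.29 reads for WT Col-0, 3.39 and 3.04 for pMGH3::RTL1 and 11.4 and 8.25 for pLAT52::RTL1. PRK8 had 0.336 and 0.340 reads per 100 PRK2 reads for WT Col-0, 0.414 and 0.331 for pMGH3::RTL1 and 1.84 and 1.07 for pLAT52::RTL1. PRK1 had 4.91 and 4.12, 4.43 and 4.40, and 9.96 and 8.82 in the same order. In each case the pLAT52::RTL1 libraries lay above the other 4 with a wide gap. These ratios all have PRK2, which was called lower, as their denominator, so they are not separate results. With 2 libraries against 2, an exact permutation test of a ratio cannot give a two-sided p below 0.333, so these ratios are given without a test.

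The shares of the PRK mRNA pool restate the same change in part. PRK2 was most of the pool, so a fall of PRK2 raises the shares of the other genes, also that of PRK4, which was itself called lower. PRK2 was 65.4% and 67.1% of all PRK reads in WT Col-0 and 66.1% and 67.9% for pMGH3::RTL1, but 49.9% and 55.5% for pLAT52::RTL1. The share of PRK4 was 21.4% and 20.4% for WT Col-0 and 24.5% and 22.8% for pLAT52::RTL1. PRK6 was 2.40% and 2.21% of the pool in WT Col-0 and 5.70% and 4.58% for pLAT52::RTL1, and PRK8 was 0.220% and 0.228% against 0.918% and 0.595%.

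**Figure D3:**
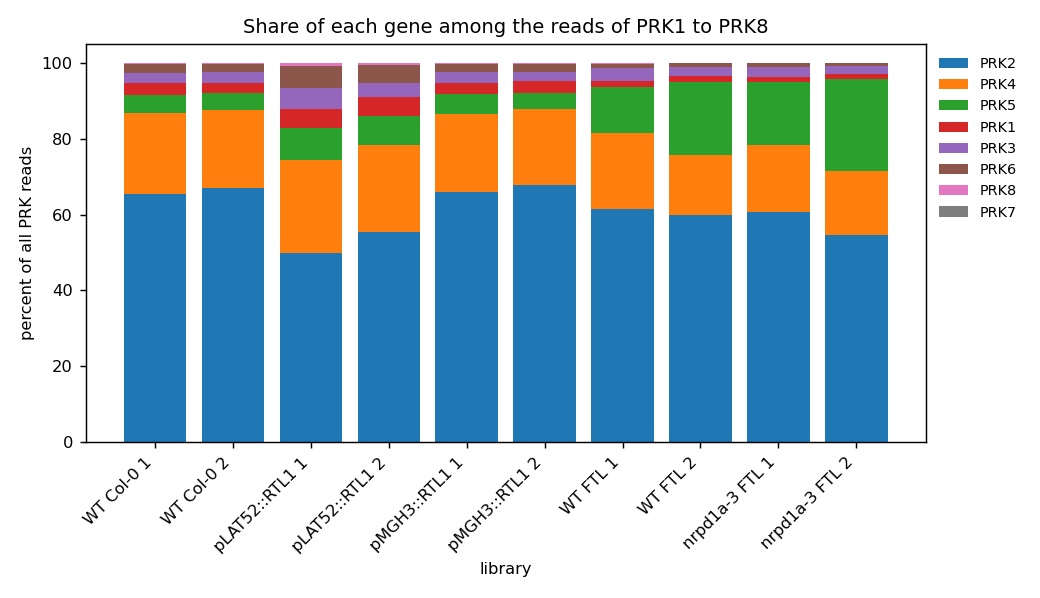
Share of each gene among the reads of PRK1 to PRK8 in each library, in percent, with 1 stacked bar per library. PRK2 makes up 65.4% to 67.9% of the pool in WT Col-0 and pMGH3::RTL1 and 49.9% to 55.5% in pLAT52::RTL1, and PRK5 reaches 24.3% in nrpd1a-3 FTL replicate 2.

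Expression of RTL1 from the MGH3 promoter, in the germline, left no PRK gene past the threshold. DESeq2 called 0 of the 8 members, 0 had an unadjusted p under 0.05 and edgeR also called 0. Over all 27651 features tested, 0.0145% were higher and 0.00723% lower. For PRK1 to PRK5 the log2 fold changes were between -0.04 and 0.06, PRK6 was at -0.10 ± 0.16 and PRK8 at 0.15 ± 0.21. The 95% interval of PRK2 was -0.37 to 0.41 and that of PRK4 -0.37 to 0.29, and that of PRK8 -0.26 to 0.56. The values of these 3 genes in pLAT52::RTL1 lay outside these intervals, which leaves out the error of those values. The direct comparison below includes it. PRK7, with 7 and 10 reads, was at 0.97 ± 1.21.

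The constructs were compared directly in the same fit. PRK2 was lower in pLAT52::RTL1 than in pMGH3::RTL1 by a log2 difference of -1.33 ± 0.20 (DESeq2 adjusted p = 1.67e-09) and PRK4 by -0.77 ± 0.17 (adjusted p = 0.000102), and PRK8 was higher by 0.56 ± 0.21 (adjusted p = 0.0492). That is 2 of 7 members lower and 1 higher, beside 7.36% and 5.53% of the 10497 features tested. The PRK8 call sat at the threshold and was lost in the quasi-likelihood test of edgeR (0.58, adjusted p = 0.063), with a filter on low counts (0.56, adjusted p = 0.0501), with size factors taken without TEs and the 100 most abundant features (0.56, adjusted p = 0.0504), in a fit of the 4 libraries compared (0.57, adjusted p = 0.107) and without pLAT52::RTL1 replicate 1 (0.49), pMGH3::RTL1 replicate 1 (0.66) or pMGH3::RTL1 replicate 2 (0.48). In a fit of all 10 libraries only PRK2 remained past the threshold, here and against WT Col-0. By total reads, which moved the median by 0.49, PRK4 was at -0.29 and not called and PRK6 at 0.73 was called.

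Several partners of the PRKs were lower in pLAT52::RTL1 pollen as well. Of a list of 17 partner genes, 16 had an adjusted p against WT Col-0, of which 4 fell and 1 rose, beside 7.77% and 6.53% of the 11002 features tested. The median log2 fold change of the 16 was -0.21. The 4 that fell are membrane or membrane-anchored kinases of LURE1 sensing. LIP1, a receptor-like cytoplasmic kinase of the tube tip, had 49340 and 49020 normalized counts for WT Col-0 and 12009 and 6692 for pLAT52::RTL1 (-2.39 ± 0.23, DESeq2 adjusted p = 7.51e-24). Its homolog LIP2 fell by 1.51 on the log2 scale (SE 0.15), MDIS1, a receptor kinase reported to bind LURE1, by 1.10 (SE 0.16) and MIK1, which acts with MDIS1, by 1.04 (SE 0.18). Other kinases of the list, MIK2 (-0.62 ± 0.51), AGC1.5 (0.02 ± 0.15) and AGC1.7 (0.12 ± 0.18), were not called.

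Of the downstream switches and their exchange factors, 1 gene passed. ROP5, a ROP GTPase of the tube, rose by 0.56 (SE 0.19, adjusted p = 0.0262), from 1447 and 1509 normalized counts to 2477 and 1876. Against pMGH3::RTL1 its log2 difference was 0.50 and not called (adjusted p = 0.0592). ROP1 and ROP3 and all 6 exchange factors (ROPGEF8 to ROPGEF13), including ROPGEF12, the partner of PRK2, did not pass. ROPGEF12 had 19863 and 19109 normalized counts for WT Col-0 and 21882 and 23061 for pLAT52::RTL1. GRI, the gene of the peptide sensed through PRK5 in leaves, had 0 reads in all 10 libraries. In pMGH3::RTL1 0 of 16 partners were called, with 0 at an unadjusted p under 0.05.

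Most of the listed markers of the vegetative cell were lower in pLAT52::RTL1 pollen, as were PRK2 and PRK4. Of the 8 vegetative cell markers, 5 were lower in pLAT52::RTL1 than in control pollen (ANX2, BUPS1, BUPS2, ACA9 and VGD1) and 0 higher. RALF4 (-0.04), RALF19 (-0.15) and ANX1 (-0.26) were not called. On the common scale the summed level of the 8 was 1055050 to 1379020 against 1875540 to 1978380 normalized counts, with none at 0. Most of it came from VGD1, at 836908 and 1138207 in pLAT52::RTL1 and 1590848 and 1486916 in WT Col-0. The sum therefore does not stand for the markers as a set. The 6 sperm cell markers had 0 calls, with sums of 5133 to 5983 against 5783 to 6045. The leaf marker RBCS1A was higher in both constructs (log2 fold changes of 3.03 and 3.14). The part of these differences in the PRK values was not tested, and in bulk pollen fewer cells of a type and less RNA per cell cannot be told apart.

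Loss of NRPD1A was compared within the sorted pollen, where wild-type and mutant grains come from the same plants. WT FTL grains carried the linked DsRed transgene and nrpd1a-3 FTL grains did not, so an effect of the transgene cannot be told apart from loss of NRPD1A. No PRK gene passed the test. DESeq2 called 0 of the 8 members, 0 had an unadjusted p under 0.05, and edgeR and the fit of all 10 libraries also called 0. Of the 24995 features tested 0.008% were higher and 0% lower in this fit. The median log2 fold change was -0.25 over the members and 0.16 over all features tested.

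Values within the sorted groups were spread. PRK2 had 58492 and 58052 normalized counts for WT FTL and 45592 and 57749 for nrpd1a-3 FTL (-0.17 ± 0.41, interval -0.98 to 0.64). PRK4 had 18887 and 15187 against 13307 and 17798, so the groups overlapped (-0.13 ± 0.43). PRK6 had 1113 and 872 against 743 and 832 (-0.33 ± 0.44), and PRK1 1583 and 1613 against 949 and 1388 (-0.45 ± 0.44), both with the mutant libraries below the wild-type ones. The mutant libraries were also the lower ones for PRK3, with 3172 and 2342 against 1988 and 2197, and for PRK8, given below. How many of all features show such an order was not counted.

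PRK8 had the lowest estimate, with 236 and 119 normalized counts for WT FTL and 72.4 and 106 for nrpd1a-3 FTL (-0.999 ± 0.63, DESeq2 adjusted p = 0.99). PRK5 was the highest of the well-measured members, with 11560 and 18680 against 12560 and 25665 (0.34 ± 0.49), where replicate 2 exceeded replicate 1 in both groups. Its sign turned to -0.32 without nrpd1a-3 FTL replicate 2 and to -0.01 when scaled by total reads, which moved the median by -0.30. PRK3 (-0.40 ± 0.43) and PRK7 (0.32 ± 1.47) were also within their errors. The interval of PRK4 (-0.97 to 0.70) held its value in pLAT52::RTL1, whereas those of PRK2 and of PRK8 (-2.24 to 0.24) did not. That leaves out the error of the pLAT52::RTL1 values, and the test of the difference below called neither PRK2 nor PRK8. nrpd1a-3 FTL replicate 1 had the highest leaf marker sum, and its part in these values was not tested. Of the 16 partners with an adjusted p, 0 were called here and 0 had an unadjusted p under 0.05.

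The test of the pLAT52::RTL1 effect minus the nrpd1a-3 FTL effect, in a fit of all 10 libraries, called 0 of 7 members in DESeq2 and 0 in edgeR, beside 0.574% higher and 2.16% lower among 11852 features. PRK8 and PRK2 had an unadjusted p under 0.05. PRK8 had a difference of 1.61 ± 0.56 (adjusted p = 0.0972), from a higher level in pLAT52::RTL1 and a lower estimate in nrpd1a-3 FTL, and it passed with TMM factors (1.81, adjusted p = 0.0326). PRK2 had a difference of -1.22 ± 0.45 (adjusted p = 0.132) and passed without pLAT52::RTL1 replicate 2 (-1.58) or without nrpd1a-3 FTL replicate 1 (-1.50). PRK4 was at -0.78 ± 0.43 and the others between -0.64 and 0.39. By total reads, which moved the median by 0.85, 89.8% of the called features were higher instead of 21.0%, PRK6 (1.28) and PRK8 (2.56) were called, and PRK4 and PRK5 turned to 0.13 and 0.30 without being called. Of the partners, LIP1 (-2.54 ± 0.46) and LIP2 (-1.88 ± 0.49) were called.

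The sorted WT FTL pollen was also set against WT Col-0 pollen, and the grains of both are wild type for NRPD1A. The parent plants of WT FTL, however, were heterozygous for the nrpd1a-3 insertion. The groups thus differ in sorting, in the DsRed transgene, in the genotype of the parent plants and in the experiment, which cannot be told apart. DESeq2 called 5 of the 8 members as lower, beside 15.4% of 16312 features, and 1 as higher, beside 14.9%, and the median log2 fold change was -0.90 over the members and 0 over all features. All values in this comparison are normalized counts on the common scale of the 10 libraries.

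The LURE1-sensing members PRK6 and PRK1 were the lowest. PRK6 had 4176 and 4100 for WT Col-0 and 1234 and 1022 for WT FTL (-1.87 ± 0.27, DESeq2 adjusted p = 1.19e-10), and PRK1 had 5589 and 5138 against 1755 and 1891 (-1.56 ± 0.33, adjusted p = 2.28e-05). Both kept their calls without any 1 of the 4 libraries compared. The nrpd1a-3 FTL libraries were as low, at 813 and 1098 for PRK6 and 1038 and 1831 for PRK1. All 4 sorted libraries thus lay below all 6 of the RTL1 experiment for these genes. The same was true of PRK3 (2175 to 3518 against 4070 to 5136) and PRK8 (79.2 to 262 against 382 to 695). The share of all features with such a separation was not counted. PRK8 had 382 and 424 against 262 and 140 (-1.002 ± 0.39, adjusted p = 0.036) and PRK3 had 4470 and 5136 against 3518 and 2745 (-0.62 ± 0.27, adjusted p = 0.0687).

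PRK2 had 113768 and 124696 for WT Col-0 and 64870 and 68054 for WT FTL (-0.84 ± 0.32, adjusted p = 0.0283), and PRK4 had 37198 and 37841 against 20946 and 17803 (-0.95 ± 0.30, DESeq2 adjusted p = 0.00803). PRK5 was the only member called as higher, with 8273 and 8386 for WT Col-0, 12821 and 21899 for WT FTL (1.06 ± 0.41, adjusted p = 0.0367) and 13738 and 33868 for nrpd1a-3 FTL. The groups did not overlap for any of the 3 genes. The overlapping TE AT1TE62110 had 210 and 223 against 366 and 594 (1.15 ± 0.45), so it moved with PRK5.

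The 6 calls did not all hold. Without WT Col-0 replicate 1, WT Col-0 replicate 2 or WT FTL replicate 2, only PRK1 and PRK6 stayed past the threshold, and edgeR did not call PRK2 (-0.86, adjusted p = 0.0573). Vegetative cell markers moved in both directions in this comparison, with 4 of 8 lower and 2 higher (RALF4 and RALF19). Their summed level was 769456 to 838455 in WT FTL against 1875540 to 1978380. Most of the WT Col-0 sum came from VGD1, at 1590848 and 1486916 there and 349092 and 172333 in WT FTL. The sum therefore does not stand for the markers as a set. Of the 6 sperm cell markers 1 was lower (GEX2, -1.30, DESeq2 adjusted p = 0.00299) and 0 higher, GCS1 had an unadjusted p under 0.05 (-1.17, adjusted p = 0.0675), and their summed level was 4077 to 6325 against 5783 to 6045. The leaf marker sum was 6.75 to 16.6 against 15.1 to 31.5. Their part in the PRK values was not tested.

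**Figure D4:**
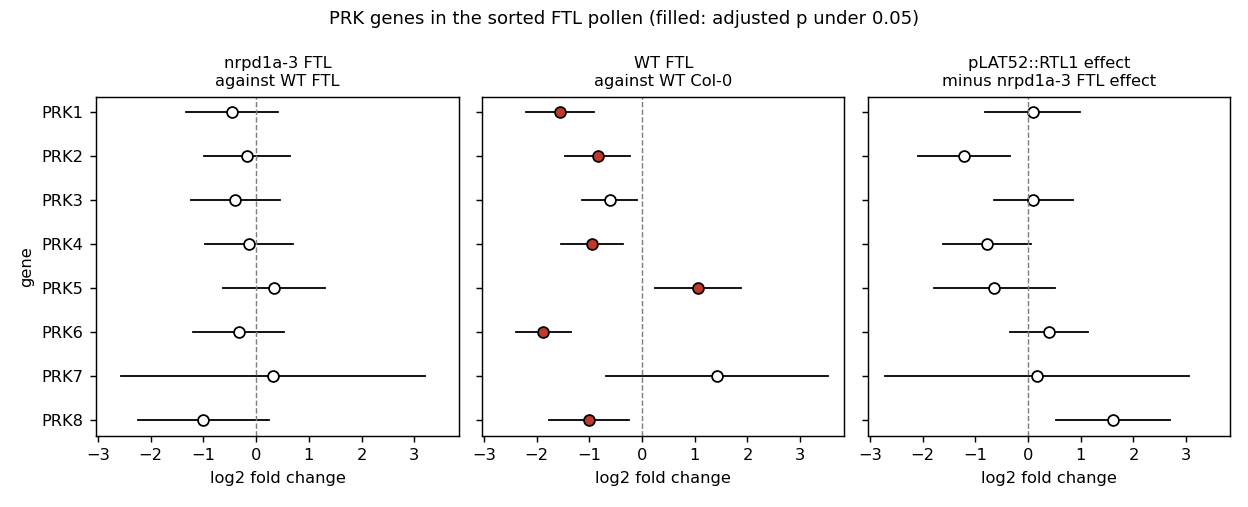
Log2 fold change of PRK1 to PRK8 in nrpd1a-3 FTL against WT FTL, WT FTL against WT Col-0, and the pLAT52::RTL1 effect minus the nrpd1a-3 FTL effect. Points are DESeq2 estimates, lines are 95% intervals, and filled points have an adjusted p under 0.05. Calls appear only between WT FTL and WT Col-0, where PRK5 (1.06) is above 0 and PRK6 (-1.87) and PRK1 (-1.56) are the lowest.

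Partners of the PRKs also differed between WT FTL and WT Col-0, with 6 of 16 higher and 4 lower, beside 14.9% and 15.4% of the features tested. ROPGEF12, the exchange factor of PRK2, had 17618 and 16830 for WT Col-0 and 3558 and 3201 for WT FTL (-2.35 ± 0.30, DESeq2 adjusted p = 3.25e-13). The kinases AGC1.5 (-2.63 ± 0.35) and AGC1.7 (-1.003 ± 0.40), which phosphorylate exchange factors at the tube tip, and the scarce ROPGEF10 (-3.16 ± 1.22) were also lower. LIP1 (1.11 ± 0.32), LIP2 (1.57 ± 0.35), ROP1 (1.45 ± 0.37), ROP5 (0.70 ± 0.27), ROPGEF11 (1.39 ± 0.31) and ROPGEF13 (1.87 ± 0.52) were higher. LIP1 and LIP2 thus had opposite signs here and in pLAT52::RTL1, while PRK2 and PRK4 were lower in both. The comparisons share the WT Col-0 libraries.

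PRK4 and PRK5, the pair most alike in sequence, parted in the sorted pollen. PRK5 had 22.2 and 22.2 reads per 100 reads of PRK4 for WT Col-0, 34.4 and 34.1 for pLAT52::RTL1 and 25.5 and 22.1 for pMGH3::RTL1, but 61.2 and 123 for WT FTL and 94.4 and 144 for nrpd1a-3 FTL. Every sorted library lay above every other, and replicate 2 was above replicate 1 in both sorted groups. PRK6 per 100 PRK2 reads was 1.90 and 1.502 for WT FTL and 1.63 and 1.44 for nrpd1a-3 FTL, below the 3.29 and 3.67 of WT Col-0, where pLAT52::RTL1 was above them. PRK8 per 100 PRK2 reads was 0.404 and 0.205 for WT FTL and 0.159 and 0.183 for nrpd1a-3 FTL, so WT FTL overlapped WT Col-0.

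**Figure D5:**
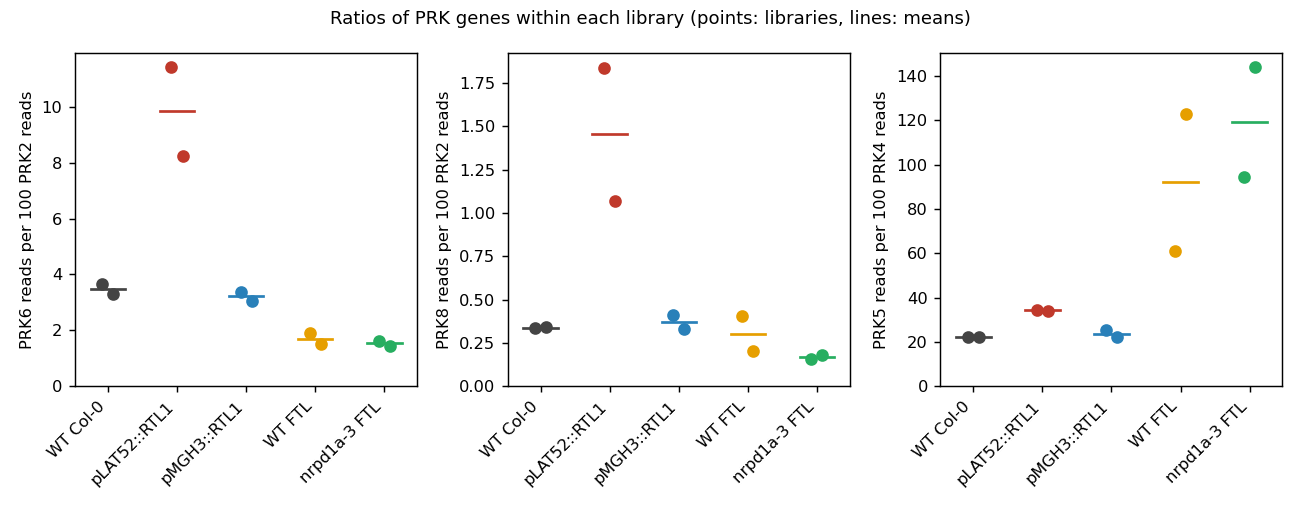
Reads of PRK6 and PRK8 per 100 PRK2 reads and of PRK5 per 100 PRK4 reads in each library. Points are libraries, lines are means of 2 libraries, and the vertical axes start at 0. pLAT52::RTL1 is the highest group for PRK6 (11.4 and 8.25) and PRK8 (1.84 and 1.07), and the sorted FTL groups are the highest for PRK5 (61.2 to 144).

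Across the 10 libraries the members formed no single pattern. On the log2 scale, PRK1, PRK3, PRK6 and PRK8, the 4 genes linked to LURE1 sensing, had Pearson correlations of 0.88 to 0.96 with each other, and PRK2 and PRK4 were correlated at 0.90. PRK4 was also at 0.83 with PRK1, 0.84 with PRK3 and 0.70 with PRK6. PRK6 and PRK2 were at 0.35, and PRK5 was negative with the 6 others, PRK7 left out, from -0.83 with PRK6 to -0.11 with PRK2. These values describe 10 libraries that fall into few clusters and share the difference between the experiments, so no p is given. The genes whose log2 normalized counts were most like the mean profile of the 7 members whose mean normalized count reached 50 were AT5G12430 (TPR16, r = 0.99), AT5G10550 (GTE2, r = 0.99) and AT5G10540 (r = 0.99), out of 6895 genes. AT5G10550 and AT5G10540 overlap on opposite strands in the reference, so they can share reads.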

How the data were processed

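Raw read counts, not normalized, were deposited by the authors in a table per library with a row for every gene, TE and stretch between them (TAIR10). In the study's methods STAR aligned the paired-end reads and DESeq2 tested them. The counting program, its use of strand and its treatment of reads with several positions are not given in the sources used here. Counts were even for 65.7% to 74.8% of features above 20 reads, a sign that mates may have been counted separately, so counts overstate independent molecules.

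DESeq2 1.42.0 (R 4.3.3) was run on genes and TEs jointly (median-of-ratios size factors, Wald tests, Benjamini-Hochberg adjustment over all features, threshold 0.05). The 6 libraries of the RTL1 experiment and the 4 FTL libraries were fitted separately, and WT FTL against WT Col-0 and the difference of effects over all 10. Fold changes are not shrunken. Levels, shares, ratios and correlations are descriptions without a test. The fitting code was also run on counts simulated from its own model, with the spread estimated from these data. That checks the code, not whether the model suits the real libraries. The members, the lists of 17 partners and of markers, and the rule that names all 8 members, the partners called and the 3 genes most alike in profile were chosen with earlier results of these data known. Labels call the replicates biological. The spread behind the p-values was estimated over all libraries of a fit, 2 per group, and DESeq2 draws it towards that of features of like abundance. For the constructs it can include differences between lines. Chromosome ends agree between the tables and TAIR10.1, in which 26907 genes (98.2%) were found. Alternatives were edgeR 4.0.16, other scalings, a minimum of 10 counts in 2 or more libraries, other sets of libraries, a replicate block and leaving out each library.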

Additional observations from a re-analysis of the deposited data

Results flagged for a closer look

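The direct test between the constructs passed its threshold for 3 PRK genes. In pLAT52::RTL1 against pMGH3::RTL1 the log2 difference was -1.33 for PRK2, -0.77 for PRK4 and 0.56 for PRK8 (DESeq2 adjusted p under 0.05 for each, with 2 of 2 pLAT52::RTL1 libraries beyond both pMGH3::RTL1 libraries). The PRK8 difference (adjusted p = 0.0492) was at the threshold and was lost under most alternatives, among them edgeR (0.063) and the replicate block (0.0887). PRK4 was not called by total reads (-0.29) or in a fit of all 10 libraries (-0.75), whereas PRK2 kept its call in both.

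The intergenic interval downstream of PRK6 (chr5:7004551-7005844), which holds the part of the annotated PRK6 transcript that lies outside its table interval and was not part of the tests, had 751 to 793 normalized counts in WT Col-0 and 927 to 1044 in pLAT52::RTL1, a ratio of means of 1.28. These groups did not overlap, but pMGH3::RTL1, at 745 to 977, overlapped both. The interval upstream of PRK4 (chr3:7043841-7044943) holds the start of the annotated PRK4 transcript (base 7044711), so reads of PRK4 can fall in it. It had 621 to 714 in WT Col-0 and 229 to 246 in pLAT52::RTL1, a ratio of 0.356, in the direction of PRK4 itself. The interval upstream of PRK3 (chr3:14953312-14954587), which holds the start of the PRK3 transcript, had 169 to 215 against 109 to 123. That is a ratio of 0.606 without overlap, although PRK3 was not called. Between the sorted groups this PRK3 interval had 132 to 226 for WT FTL and 41.6 to 75.3 for nrpd1a-3 FTL. The ratio there was 0.326, also without overlap. Sorted groups were separate too for the intervals upstream of PRK2 (0.589) and, the other way, downstream of PRK3 (1.17). Downstream of PRK2 the ratio for pLAT52::RTL1 to WT Col-0 was 0.455 without overlap. How many of all intervals separate in this way was not counted.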

How the results depend on the processing

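Counts of called members were 3, 0, 3, 0, 6 and 0 for pLAT52::RTL1 against WT Col-0, pMGH3::RTL1 against WT Col-0, pLAT52::RTL1 against pMGH3::RTL1, nrpd1a-3 FTL against WT FTL, WT FTL against WT Col-0 and the difference of effects. In a fit of all 10 libraries both counts for pLAT52::RTL1 fell to 1. Leaving out each library in turn gave 2 to 5 calls for pLAT52::RTL1 against WT Col-0, 2 to 5 against pMGH3::RTL1, 2 to 6 for WT FTL against WT Col-0, 0 to 1 for the difference of effects, and 0 for the others. The difference of effects had 1 call with TMM factors and 2 by total reads (PRK6 1.28, PRK8 2.56). The cause of these changes was not tested beyond the sets of libraries and scalings named. Leaving out a library of a pair leaves 1, which is assumed to vary like the other groups.

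Signs turned for estimates near 0 and also for some further from it, such as PRK4 (-0.78) and PRK5 (-0.64) in the difference of effects. By total reads, PRK1, PRK3 and PRK5 turned to 0.21, 0.27 and 0.29 in pLAT52::RTL1 against WT Col-0 and to 0.22, 0.30 and 0.24 against pMGH3::RTL1, PRK5 and PRK7 to -0.0141 and -0.0011 in nrpd1a-3 FTL, and PRK4 and PRK5 to 0.13 and 0.30 in the difference of effects. In pMGH3::RTL1 against WT Col-0, PRK1 turned to 0.0001 with TMM factors and with edgeR (log2 0.0001). Leave-one-out ranges that crossed 0 were, in that contrast, -0.0744 to 0.0579 for PRK1, -0.0616 to 0.0897 for PRK2, -0.138 to 0.0816 for PRK3 and -0.0230 to 0.131 for PRK5. In nrpd1a-3 FTL they were -0.41 to 0.0559 for PRK4 and -0.32 to 0.75 for PRK5, and in the difference of effects -0.27 to 0.57 for PRK1, -0.10 to 0.33 for PRK3, -1.15 to 0.17 for PRK5 and -0.12 to 0.39 for PRK7. Of 576 values of single members under an alternative, 500 kept their direction and side of the threshold or stayed within the spread, 31 lost and 15 gained a call, 26 changed sign and 4, all of PRK7, moved by more than the spread.

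In the fits with a replicate block, PRK8 in pLAT52::RTL1 against pMGH3::RTL1 was 0.56 and no longer called (adjusted p = 0.0887), and no other member's call changed. Over all features, the replicate block raised the calls in nrpd1a-3 FTL from 2 to 407 (344 higher and 63 lower of 2930 tested), with 0 members among them, PRK7 and PRK8 having no adjusted p there. Deviations of same-numbered libraries correlated at 0.51 between the sorted groups and at -0.0073, 0.14 and 0.21 between pairs of groups in the RTL1 experiment, but the labels do not say that a number marks a shared sort or line. Other counts over all features that moved by over 1.5 times were, for nrpd1a-3 FTL, 58 in edgeR, 28 in a fit of all 10 libraries, 5 with the filter and 1 by total reads, and, by total reads, 3294 instead of 1573 in pLAT52::RTL1 against WT Col-0, 3124 instead of 1353 against pMGH3::RTL1 and 1001 instead of 324 in the difference of effects. In a fit of all 10 libraries pLAT52::RTL1 had 682 calls against WT Col-0 and 587 against pMGH3::RTL1. pMGH3::RTL1 against WT Col-0 had 34 in edgeR, 2 in the fit of all 10 and 12 in a fit of the 4 libraries compared, instead of 6. By total reads the share of higher calls was 87.0% instead of 42.9% in pLAT52::RTL1 against pMGH3::RTL1 and 89.8% instead of 21.0% in the difference of effects. The lowest read counts were those of PRK7, with 4 to 14 reads, and of PRK8 in nrpd1a-3 FTL, with 75 and 84.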
